A study of Mus musculus with 7 samples.

Results

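The myostatin, activin and follistatin genes are a set of 9 genes chosen by name: the ligand genes Mstn, Gdf11, Inhba and Inhbb, the genes Fst, Fstl3 and Fstl1 of the follistatin family, and the type II activin receptor genes Acvr2a and Acvr2b. All 9 were among the 29869 gene symbols of the deposited table, matched on the symbol. Transcripts were counted by RNA sequencing in whole soleus, a slow-twitch hindlimb muscle, of 7 mice at 60 days of age. By sample title, 3 libraries are mdx/Runx1f/f and 4 are mdx. Every animal carried mdx, the dystrophin mutation used as a mouse model of Duchenne muscular dystrophy, so the set has no muscle with dystrophin. By their titles, the 3 mdx/Runx1f/f libraries come from mice that also have floxed alleles of Runx1, the gene of a transcription factor induced in damaged and denervated muscle, and the labels name no Cre driver. The comparison asks which transcripts depend on Runx1 in dystrophic muscle.

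Myostatin, encoded by Mstn, is a secreted protein made mainly by skeletal muscle fibres that restrains muscle growth. It is cut from its precursor by furin-type and tolloid proteases, binds the type II receptors Acvr2b and Acvr2a, and acts through a type I receptor on Smad2 and Smad3. The activins, dimers of the subunits encoded by Inhba and Inhbb, and the myostatin relative Gdf11 use the same receptors. Follistatin (Fst) and the follistatin-like protein Fstl3 bind these ligands outside the cell and keep them from their receptors. Fstl1 carries a follistatin-like domain but is best known as a glycoprotein secreted by mesenchymal cells.

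The promoters of the 3 genes that were called are shown because their transcripts were higher together in the same libraries. Each is the 250 bases before the annotated transcription start, read on the strand of the gene, from the RefSeq promoter table on GRCm38.p6, which held a promoter for 8 of the 9 genes. The Mstn promoter lies at chr1:53061390-53061639 on the plus strand, that of Inhbb at chr1:119422249-119422498 on the minus strand and that of Fstl1 at chr16:37776805-37777054 on the plus strand. Capitals mark a match on either strand to the Runx motif TGTGGT, its other form TGCGGT, the E-box CANNTG bound by myogenic factors, the Smad-binding motif GTCTG, or the TATA box letters TATAAA.
Mstn: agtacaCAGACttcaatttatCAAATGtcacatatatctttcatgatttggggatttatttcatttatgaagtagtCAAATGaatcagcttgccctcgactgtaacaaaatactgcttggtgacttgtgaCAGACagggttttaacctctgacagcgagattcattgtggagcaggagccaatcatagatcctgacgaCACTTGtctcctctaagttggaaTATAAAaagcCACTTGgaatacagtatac
Inhbb: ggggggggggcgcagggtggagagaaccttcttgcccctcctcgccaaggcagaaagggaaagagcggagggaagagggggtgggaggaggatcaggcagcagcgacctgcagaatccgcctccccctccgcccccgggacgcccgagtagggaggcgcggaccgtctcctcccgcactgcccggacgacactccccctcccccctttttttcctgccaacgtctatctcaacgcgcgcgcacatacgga
Fstl1: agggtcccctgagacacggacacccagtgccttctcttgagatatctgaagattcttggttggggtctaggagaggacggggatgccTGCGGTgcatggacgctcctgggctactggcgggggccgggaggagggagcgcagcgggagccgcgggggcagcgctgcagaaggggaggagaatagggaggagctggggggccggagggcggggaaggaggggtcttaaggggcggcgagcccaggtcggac

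The Mstn window held 4 E-boxes, 2 Smad-binding motifs and a TATA box that ran from -29 to -24 before the start, and none of these matches overlapped. Fstl1 had 1 match, to the second form of the Runx motif, and Inhbb had none. The second Runx form was also found from -250 to -245 in the window of Acvr2a, a member that was not called. Of 32851 promoter windows of this length, 66.2% held an E-box, 42.2% the Smad-binding motif, 12.4% the TATA letters and 5.10% the second Runx form, and 4614 of them held the first Runx form. A match is a description of the letters and not of binding.

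The libraries held between 16218306 and 20847902 counts. Runx1 itself, at 919, 925 and 596 normalised read counts in the libraries labelled mdx/Runx1f/f and 201 to 274 in those labelled mdx, was higher in the group titled mdx/Runx1f/f (log2 fold change 1.74, SE 0.18, adjusted p = 0.00795 by edgeR), which goes against its label if that label means loss of the transcript. That call was kept in 7 of 7 fits lacking a library each. The description field ties most animal numbers to another sample, and in the design text the group sizes are swapped relative to the titles, so every direction holds for the groups as titled. Animal numbers in the titles form a run from 358 to 363, with 2 libraries of each group, and a run from 373 to 375, with 1 library labelled mdx/Runx1f/f and 2 labelled mdx. Slow fibre markers, typical of soleus, had counts in every library, which does not by itself show which muscle was taken. Myh7, the slow myosin heavy chain gene, stood at 40503, 133265 and 128319 in the libraries labelled mdx/Runx1f/f and between 140992 and 275132 in those labelled mdx. In mdx/Runx1f/f replicate 1 the fast myosin gene Myh4 stood above Myh7, at 246072, and in every other library below it. In that replicate 13 fast fibre markers summed to 96731 CPM (counts scaled to the TMM-adjusted library total) and 10 slow fibre markers to 13074 CPM.

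Of the 9 genes, 8 passed the filter on low counts and were tested, and Fstl3 did not pass. Of the tested members 3 rose, Mstn, Inhbb and Fstl1, and 0 fell in the libraries labelled mdx/Runx1f/f, taking as called a Benjamini-Hochberg adjusted p under 0.05 in the quasi-likelihood test of edgeR. Over all 14033 tested genes 6.95% were called by this rule, 5.10% as higher and 1.85% as lower. The groups did not overlap in Mstn, Gdf11, Inhbb and Fstl1, with every library labelled mdx/Runx1f/f above every library labelled mdx, whereas 13.9% of all tested genes were apart in that direction and 13.6% in the other. DESeq2 called 4 of the 8 tested members, the same 3 and Gdf11, and it called 2396 of all 14033 tested genes. In whole muscle, a lower or higher share of a cell type and a change of RNA per cell cannot be told apart.

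**Figure D1:**
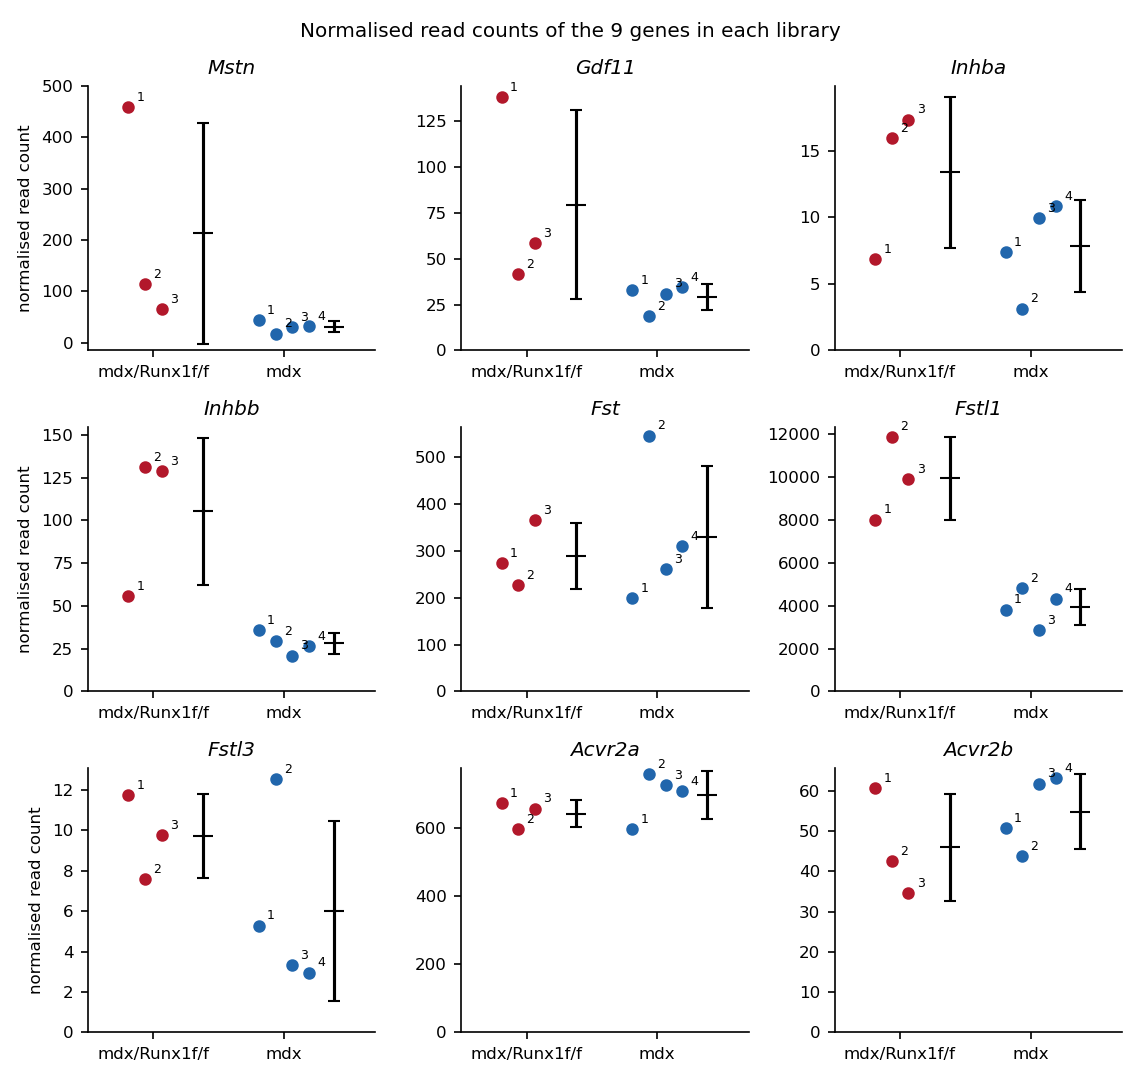
Normalised read counts (vertical axis, from or near 0) of the 9 genes in the 3 libraries labelled mdx/Runx1f/f (red, left) and the 4 labelled mdx (blue, right), numbered by replicate, with the mean and SD of each group as black bars. Mstn, Gdf11, Inhbb and Fstl1 have every red point above every blue point, and the Mstn mean of 213 rests largely on the 459 of replicate 1.

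Mstn had a normalised read count of 459, 115 and 65.1 in the libraries labelled mdx/Runx1f/f, replicates 1 to 3, against 44.4, 17.8, 29.8 and 32.6 in those labelled mdx, replicates 1 to 4. All 3 stood above all 4, and replicate 1 lay far above the others of its own group. The means were 213 ± 215 (SD, n = 3) and 31.1 ± 10.9 (SD, n = 4), which gave 2.78 as log2 fold change (SE 0.66, 95% interval 1.25 to 4.31, adjusted p = 0.0468 by edgeR). A two-sided exact permutation test of log2 CPM gave p = 0.0286, the smallest that 35 splits allow. The call was kept without mdx/Runx1f/f replicate 3 (adjusted p = 0.0365) and lost in the other 6 edgeR fits that left out a library: without mdx/Runx1f/f replicates 1 or 2 the adjusted p was 0.0625 and 0.0762, and without mdx replicates 1, 2, 3 or 4 it was 0.0620, 0.0947, 0.121 and 0.105. The log2 fold change fell to 1.53 without mdx/Runx1f/f replicate 1. In the authors' deposited table, made with DESeq2 1.6.3, Mstn had a log2 fold change of 1.603 with an adjusted p of 0.000529. DESeq2 1.42.0 on the deposited counts gave 2.78 (adjusted p = 0.000260). The authors' values were also the smaller ones for Gdf11, Inhbb and Fstl1, for a reason that was not tested. They are not a like measure to the fold changes computed here and do not show a smaller difference in the counts. Within animals 358 to 363 the difference in log2 CPM was 2.95 and within animals 373 to 375 it was 1.00.

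Fast-fibre transcripts varied among the same libraries. Myh4, the myosin heavy chain gene of the fastest fibres, stood at 246072, 53268 and 1293 normalised read counts in mdx/Runx1f/f replicates 1 to 3, against 739, 2019, 8982 and 3278 in mdx replicates 1 to 4. The groups overlapped. The order of the 3 mdx/Runx1f/f libraries was the same for Mstn and Myh4, while mdx replicate 3, the highest of its group in Myh4, was not the highest in Mstn. Of 13 fast fibre markers, all tested, 0 rose and 0 fell by edgeR, 2 had an unadjusted p below 0.05 and DESeq2 called 1. Their summed level was 39956 to 96731 CPM in the libraries labelled mdx/Runx1f/f and 35818 to 61500 CPM in those labelled mdx, and no marker was at 0 in all libraries. Taken relative to the mean log2 CPM of these markers in its own library, Mstn was at -7.88, -8.54 and -8.20 in the libraries labelled mdx/Runx1f/f and at -8.82, -10.18, -10.62 and -10.15 in those labelled mdx. Slow fibre markers summed to 13074 to 33337 CPM in the libraries labelled mdx/Runx1f/f and 37399 to 59590 CPM in those labelled mdx, with 0 of 10 called by edgeR, 6 at an unadjusted p below 0.05 and 3 called by DESeq2, and these sums did not overlap. On the scale relative to fast fibre markers the groups did not overlap either, with a difference of 1.74 in log2 units where Mstn alone gave 2.27. Relative to the mean of the 10 slow fibre markers, a scale chosen after the values were seen, the difference was 3.38 for Mstn, 2.86 for Inhbb and 2.44 for Fstl1, without overlap of the groups. Relative to the fast fibre markers, the difference was 1.22 for Inhbb and 0.80 for Fstl1, and the groups overlapped in both.

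**Figure D2:**
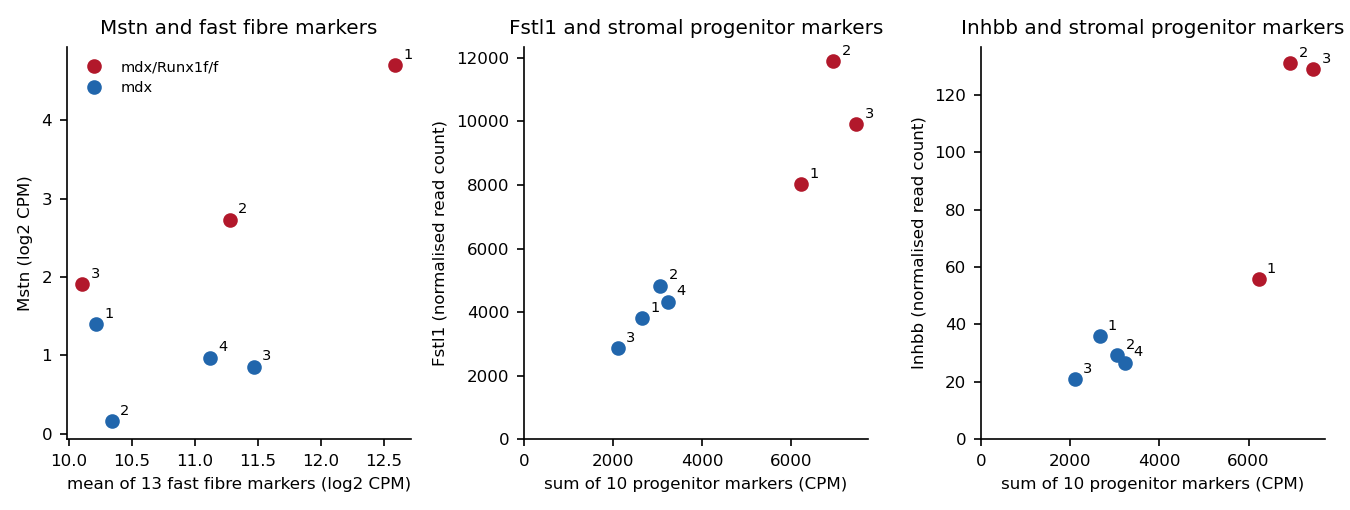
Left, Mstn against the mean of 13 fast fibre markers, both in log2 CPM; middle and right, Fstl1 and Inhbb in normalised read counts against the summed CPM of 10 fibro-adipogenic progenitor markers. Points are libraries labelled mdx/Runx1f/f (red) and mdx (blue), numbered by replicate. On the left, mdx/Runx1f/f replicate 3 lies above mdx replicates 1 and 2 in Mstn at a like marker mean (10.11 against 10.22 and 10.34). The summed CPM of these markers was higher in mdx/Runx1f/f replicate 3 (45310 against 37424 and 35818). In the middle, the red points lie to the right of and above the blue ones in Fstl1.

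Gdf11, the closest relative of Mstn, had normalised read counts of 138, 41.7 and 58.6 in the libraries labelled mdx/Runx1f/f and 32.8, 18.8, 30.9 and 34.6 in those labelled mdx. The groups did not overlap, and replicate 1 was again the highest of its group. Means of 79.5 ± 51.5 (SD, n = 3) and 29.3 ± 7.13 (SD, n = 4) gave a log2 fold change of 1.44 (SE 0.43, 95% interval 0.45 to 2.44, adjusted p = 0.0776 by edgeR), which was not called. DESeq2 called it on the same counts (log2 fold change 1.45, adjusted p = 0.0183), as did the authors' deposited table (log2 fold change 1.05, adjusted p = 0.0169), while limma-voom did not (adjusted p = 0.128). Without mdx/Runx1f/f replicate 1 the edgeR log2 fold change was 0.77.

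Inhbb, which encodes the subunit of activin B and is expressed by adipocytes among other cells, had normalised read counts of 55.8, 131 and 129 in the libraries labelled mdx/Runx1f/f and 35.9, 29.2, 20.98 and 26.7 in those labelled mdx. Its order was unlike that of Mstn: replicate 1 was here the lowest of the 3 libraries labelled mdx/Runx1f/f, though still above all 4 labelled mdx. The means, 105 ± 42.9 (SD, n = 3) and 28.2 ± 6.20 (SD, n = 4), differed 3.74-fold, with a log2 fold change of 1.90 (SE 0.33, 95% interval 1.14 to 2.66, adjusted p = 0.0211 by edgeR). In the two-sided exact permutation test p was 0.0286, the smallest possible. Leaving out mdx/Runx1f/f replicate 2 or mdx replicates 2, 3 or 4 ended the call (edgeR adjusted p = 0.0697, 0.0541, 0.0651 and 0.0583). The authors' deposited table gave a log2 fold change of 1.54 with an adjusted p of 1.75e-05. Within animals 358 to 363 the difference in log2 CPM was 1.36 and within animals 373 to 375 it was 2.34.

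Inhba, the subunit gene of activin A, was near the limit of detection. It had 7, 21 and 16 raw counts in the libraries labelled mdx/Runx1f/f and 7, 3, 9 and 11 in those labelled mdx, and the groups overlapped. Its log2 fold change of 0.77 (SE 0.47, 95% interval -0.31 to 1.85, adjusted p = 0.304 by edgeR) was not called; the counts leave this wide interval.

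Fst varied widely among the libraries labelled mdx, with replicate 2 highest. It stood at 273, 227 and 367 normalised read counts in the libraries labelled mdx/Runx1f/f and at 199.7, 546, 262 and 309.98 in those labelled mdx. The groups overlapped fully, the 3 libraries labelled mdx/Runx1f/f lying inside the range of the others. Means were 289 ± 71.2 (SD, n = 3) and 329 ± 151 (SD, n = 4), and the log2 fold change of -0.18 (SE 0.34, 95% interval -0.96 to 0.59, adjusted p = 0.750 by edgeR) was not called. Its sign depended on mdx replicate 2, without which it was 0.17. In GENCODE vM21 the gene Gm47040 on the opposite strand overlaps an exon of Fst, and without a stated strand setting reads of both cannot be told apart.

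Fstl3 did not pass the filter, with 12, 10 and 9 raw counts in the libraries labelled mdx/Runx1f/f and 5, 12, 3 and 3 in those labelled mdx. After scaling, mdx replicate 2 was the highest of all 7 at 12.5 normalised read counts, so the groups overlapped. In the fit without a filter its log2 fold change was 0.66 (SE 0.52, 95% interval -0.51 to 1.84, adjusted p = 0.491 by edgeR). Its exons overlap those of Prss57 on the other strand.

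Fstl1 was the most abundant of the 9 genes and the one whose call was least dependent on single libraries. It had normalised read counts of 8021, 11893 and 9910 in the libraries labelled mdx/Runx1f/f, against 3817, 4828, 2864 and 4331 in those labelled mdx. Every library of the first group lay above every library of the second. Means of 9941 ± 1936 (SD, n = 3) and 3960 ± 839 (SD, n = 4) gave a log2 fold change of 1.33 (SE 0.20, 95% interval 0.87 to 1.80, adjusted p = 0.0157 by edgeR), and p was 0.0286 in the two-sided exact permutation test, the smallest possible. Of 7 fits lacking a library each, 1 lost the call, that without mdx/Runx1f/f replicate 2 (adjusted p = 0.0532 by edgeR). The authors' deposited table listed a log2 fold change of 1.22 and an adjusted p of 3.96e-07. Within animals 358 to 363 the difference in log2 CPM was 1.19 and within animals 373 to 375 it was 1.47.

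Of 10 markers of fibro-adipogenic progenitors, the connective tissue progenitors of muscle, 8 rose and 0 fell. Their summed level was 6224 to 7450 CPM in the libraries labelled mdx/Runx1f/f and 2106 to 3241 CPM in those labelled mdx, and Pdgfra, the receptor that marks these cells, stood at 1571 to 1683 against 657 to 923 normalised read counts. Relative to the mean log2 CPM of these 10 markers, a scale chosen after the values were seen, the difference between the groups was 0.20 for Fstl1, where Fstl1 alone gave 1.33, and the groups overlapped, at 0.65 to 1.15 in the libraries labelled mdx/Runx1f/f and 0.52 to 0.74 in those labelled mdx. On the same scale Inhbb kept a difference of 0.62, where it gave 1.75 alone, and the groups overlapped.

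Of 6 adipocyte markers 3 rose and 0 fell, with a sum of 414 to 745 CPM in the libraries labelled mdx/Runx1f/f and 323 to 441 CPM in those labelled mdx, which overlapped. Adipoq, the gene of the fat cell hormone adiponectin, stood at 296, 542 and 998 normalised read counts in the libraries labelled mdx/Runx1f/f and at 90.8 to 209 in those labelled mdx. Relative to the mean of these 6 markers, Inhbb differed by 0.01 in log2 CPM between the groups, which overlapped. For Mstn the difference was 1.14 relative to the progenitor markers and 0.53 relative to the adipocyte markers, and for Gdf11 it was 0.10 and -0.51, with overlapping groups in each case. Of 11 tested macrophage markers, 4 rose and 0 fell, with a sum of 819 to 2209 CPM in the libraries labelled mdx/Runx1f/f and 202 to 820 CPM in those labelled mdx, ranges that overlapped. Of 6 Schwann cell markers 2 rose, with 5 at an unadjusted p below 0.05 by edgeR and 5 called by DESeq2. They summed to 226 to 248 CPM in the libraries labelled mdx/Runx1f/f and 133 to 175 CPM in those labelled mdx. Of 6 tendon markers 1 rose, with 3 at an unadjusted p below 0.05 by edgeR and 3 called by DESeq2. Their sums were 1316 to 2272 against 323 to 895 CPM, also apart, while the tendon gene Scx overlapped, at 103 to 202 against 177 to 278 normalised read counts. Of 8 markers of regenerating fibres and satellite cells 0 were called by edgeR, with 4 at an unadjusted p below 0.05 and 1 called by DESeq2, and of 6 endothelial markers 0 were called by either tool, with 0 at an unadjusted p below 0.05. No listed marker was at 0 in every library, and the part of these cell types in the results for Mstn, Inhbb and Fstl1 was not tested beyond these values.

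The receptors showed no called difference. Acvr2a, the type II receptor shared by activins and myostatin, had the smallest spread of the 9 genes, at 674, 598 and 658 normalised read counts in the libraries labelled mdx/Runx1f/f and 597, 759, 728 and 709.8 in those labelled mdx. The groups overlapped, since mdx replicate 1 was the lowest of all 7. Its log2 fold change was -0.11 (SE 0.11, 95% interval -0.36 to 0.13, adjusted p = 0.516 by edgeR), an interval narrow enough to leave out a 1.5-fold change either way. Acvr2b, the receptor with the higher affinity for myostatin, had 60.7, 42.5 and 34.7 normalised read counts in the libraries labelled mdx/Runx1f/f and 50.7, 43.9, 61.8 and 63.2 in those labelled mdx. These overlapped as well, with a log2 fold change of -0.25 (SE 0.25, 95% interval -0.82 to 0.33, adjusted p = 0.542 by edgeR). An exon of Acvr2a overlaps Orc4 on the other strand, with the same limit as for Fst.

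Levels of the genes were compared per length, as CPM per kilobase of merged exon in GENCODE vM21. Here CPM was scaled to the plain library total, without the TMM adjustment. Fstl1 was at 157 ± 38.6 in the libraries labelled mdx/Runx1f/f (SD, n = 3) and 57.8 ± 14.3 in those labelled mdx (SD, n = 4), far above every other member. Acvr2a followed, at 6.70 ± 0.14 and 6.73 ± 0.67 on this scale, with Fst at 6.001 ± 1.20 and 6.42 ± 3.15, and this pair did not differ beyond its spread in either group. Mstn was at 4.62 ± 4.55 and 0.63 ± 0.24, and it lay above Acvr2a and Fst in mdx/Runx1f/f replicate 1, at 9.83, and below both in the other 6 libraries. Lower group means than Acvr2a and Fst were also found for Inhbb at 1.48 ± 0.63 and 0.37 ± 0.10, Gdf11 at 1.15 ± 0.72 and 0.39 ± 0.09, and Acvr2b at 0.76 ± 0.22 and 0.84 ± 0.11. In the libraries labelled mdx the mean of Acvr2b lay above that of Mstn. Fstl3 and Inhba had the lowest means, with every library below 0.37 for Fstl3 and below 0.16 for Inhba. Within the mdx group, Inhbb and Gdf11 did not differ beyond their spread.

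**Figure D3:**
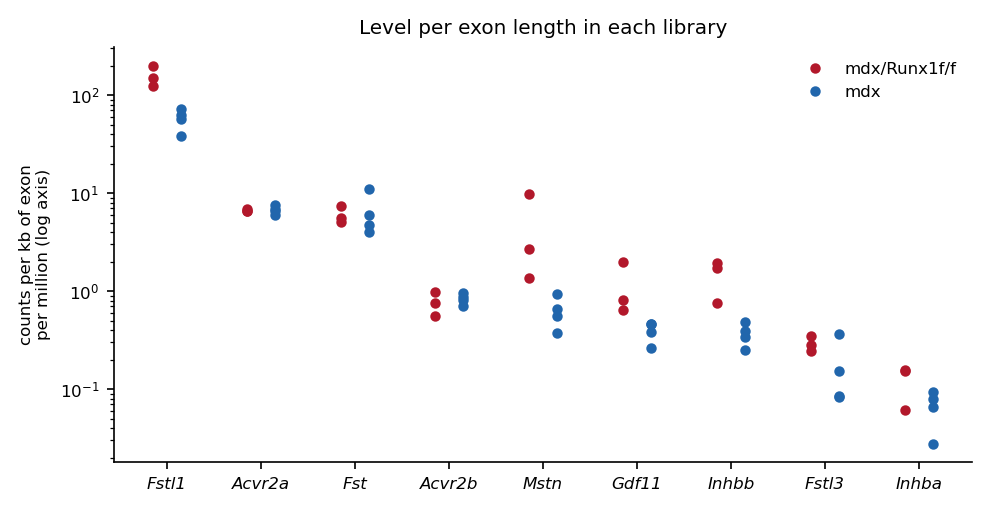
CPM, scaled to the plain library total, per kilobase of merged exon (log axis) of each gene in the libraries labelled mdx/Runx1f/f (red, left of each pair) and mdx (blue, right), ordered by the mean in the mdx group. Fstl1 lies above 38 in every library, Acvr2a and Fst between 4.04 and 10.98, and Inhba below 0.16.

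Ligand and binding protein transcripts were also set against each other within each library, which needs no scaling between libraries. The log2 ratio of Mstn to Fst counts was 0.75, -0.98 and -2.48 in the libraries labelled mdx/Runx1f/f and -2.16, -4.90, -3.11 and -3.23 in those labelled mdx. The groups overlapped here, since mdx/Runx1f/f replicate 3 lay below mdx replicate 1. For Inhbb over Fst the ratio was -2.28, -0.79 and -1.50 in the libraries labelled mdx/Runx1f/f and -2.46 to -4.20 in those labelled mdx, without overlap. For Mstn over Acvr2b it ran from 0.90 to 2.91 in the libraries labelled mdx/Runx1f/f and from -1.28 to -0.19 in those labelled mdx, also without overlap. For Inhba over Fst, with few Inhba counts, the ratio ran from -5.22 to -3.80 in the libraries labelled mdx/Runx1f/f. In those labelled mdx it ran from -7.22 to -4.64, and the groups overlapped. No test was made on these ratios.

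Around the 9 genes, 64 further genes of or near the pathway were listed by role, of which 52 were tested. Of these 5 rose and 2 fell, 21 had an unadjusted p below 0.05, as had 4135 of all 14033 tested genes, and the median log2 fold change was 0.17, beside -0.0016 over all tested genes. Among 8 tested extracellular antagonists and binding proteins (median 0.30), Dcn, the matrix proteoglycan decorin that can bind myostatin, rose to 14886 ± 2134 normalised read counts in the libraries labelled mdx/Runx1f/f (SD, n = 3), against 6881 ± 611 in those labelled mdx (SD, n = 4), a log2 fold change of 1.12 (adjusted p = 0.0107 by edgeR). Dcn is also on the list of fibro-adipogenic progenitor markers. Wfikkn2, whose product binds and inhibits myostatin and Gdf11, fell to 92.1, 79.6 and 84.6 normalised read counts in the libraries labelled mdx/Runx1f/f, against 220, 124, 197 and 163 in those labelled mdx. The groups did not overlap, with a log2 fold change of -1.03 (SE 0.21, adjusted p = 0.0320 by edgeR). Its call ended without mdx/Runx1f/f replicates 1, 2 or 3 (edgeR adjusted p = 0.0560, 0.104 and 0.0615) and without mdx replicates 3 or 4 (0.0877 and 0.0658). Tgfbr3, the coreceptor betaglycan, had a log2 fold change of 0.55 that was not called.

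Of 5 tested proteases that cut ligand precursors (median 0.68), 1 rose. Pcsk5, a furin-type convertase, was at 345 ± 120 normalised read counts in the libraries labelled mdx/Runx1f/f (SD, n = 3) and 138 ± 20.5 in those labelled mdx (SD, n = 4), a log2 fold change of 1.33 (adjusted p = 0.0253 by edgeR). That call ended without mdx/Runx1f/f replicates 2 or 3 or mdx replicates 2 or 3 (edgeR adjusted p = 0.0777, 0.0511, 0.0611 and 0.0739). The related Pcsk6 (0.68, adjusted p = 0.0503 by edgeR) and the tolloid protease Tll1 (0.89, adjusted p = 0.0539 by edgeR) lay just beyond the threshold, with groups that did not overlap.

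Of 8 further receptors (median 0.22), Tgfbr2, the type II receptor for Tgf-beta, rose with a log2 fold change of 0.82 (adjusted p = 0.0321 by edgeR), a call that ended without mdx/Runx1f/f replicates 2 or 3 or mdx replicates 2, 3 or 4 (edgeR adjusted p = 0.100, 0.0625, 0.0613, 0.0566 and 0.0780). The Tgf-beta and myostatin type I receptor gene Tgfbr1 (0.51) and the BMP receptor gene Bmpr1b (-0.79) were not called. Of 16 Smads and modulators (median 0.12), Ski, a corepressor that restrains Smad2 and Smad3, rose with a log2 fold change of 0.56 (adjusted p = 0.0201 by edgeR), and Tgif1 (0.55) and Skil (0.45) were not called. The Ski call ended without mdx/Runx1f/f replicate 2 or mdx replicate 3 (edgeR adjusted p = 0.0650 and 0.0644). Of 4 tested further ligand and subunit genes of the wider Tgf-beta family (median 0.32), 0 were called by edgeR or DESeq2. Among them 1 had an unadjusted p below 0.05 by edgeR, Gdf15, whose use of these receptors was not tested. It was at 12.4 ± 1.43 normalised read counts in the libraries labelled mdx/Runx1f/f (SD, n = 3) and 6.03 ± 1.37 in those labelled mdx (SD, n = 4). Bmp4 had 0.51 and Inha 0.12.

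Of 11 genes that act on muscle mass downstream of or beside this pathway (median 0.14), Igf1 rose and Fbxo32 fell. Igf1, a growth factor that opposes myostatin in muscle, was at 1650 ± 173 normalised read counts in the libraries labelled mdx/Runx1f/f (SD, n = 3) and 827 ± 186 in those labelled mdx (SD, n = 4), a log2 fold change of 1.00 (adjusted p = 0.0227 by edgeR). Fbxo32, the atrophy-linked ubiquitin ligase atrogin, stood at 2094, 1595 and 1935 in the libraries labelled mdx/Runx1f/f, against 3895, 3276, 4605 and 2863 in those labelled mdx, a log2 fold change of -0.96 (adjusted p = 0.0273 by edgeR). Trim63, the other atrophy ligase, had -0.69 (adjusted p = 0.0682 by edgeR) and was not called, though its groups did not overlap. The Igf1 call ended without mdx/Runx1f/f replicates 2 or 3 (edgeR adjusted p = 0.0614 and 0.0514), and that of Fbxo32 without these or mdx replicates 2 or 3 (0.0880, 0.0550, 0.0507 and 0.0570).

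**Figure D4:**
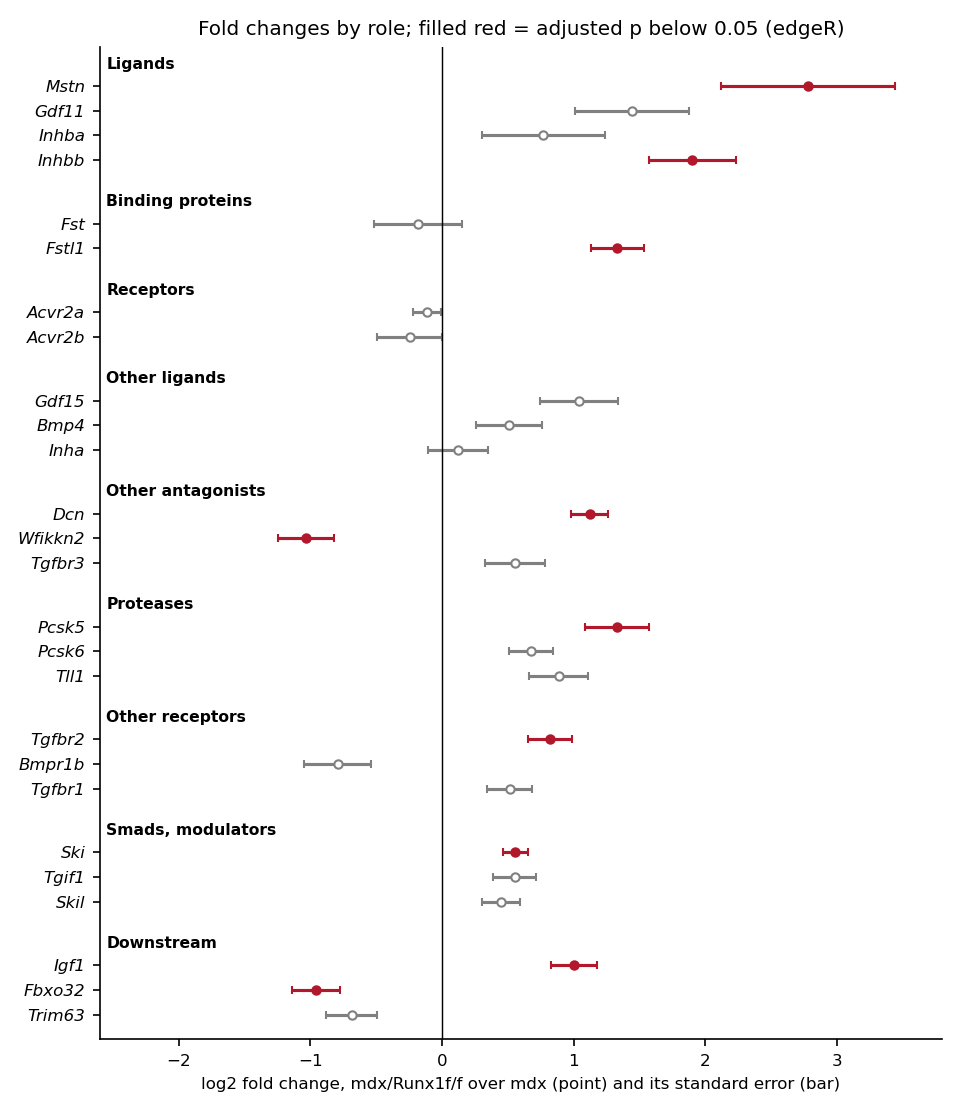
Log2 fold change, mdx/Runx1f/f over mdx, with its standard error for the 8 tested members and for the 3 genes of each pathway list with the smallest p, ordered by role. Filled red points passed an adjusted p of 0.05 by edgeR; the points of Mstn, Gdf11, Inhba and Inhbb lie between 0.77 and 2.78, and those of Fst, Acvr2a and Acvr2b between -0.25 and -0.11.

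The genes most like each member over the 7 libraries were found by the root mean square difference of centred log2 CPM among 12124 genes. For Mstn, with a spread of 1.41 on this scale, genes among the nearest were the flagellin receptor gene Tlr5 (0.58) and the kinase gene Dclk1 (0.59). For Inhbb, with a spread of 0.96, they were the matrix gene Postn (0.13), the adipocyte galectin gene Lgals12 (0.21) and Ism1 (0.24). Postn, which encodes periostin, was at 7277, 15305 and 12948 normalised read counts in the libraries labelled mdx/Runx1f/f and at 2394 to 4089 in those labelled mdx, again with replicate 1 lowest of the first group. For Fstl1, with a spread of 0.71, they were Gpr133 (0.10) and the fibrillar collagen genes Col5a1 and Col5a2 (0.11 each). Fst was nearest to Klk8, Lhx6 and Gbp9 (0.12 to 0.15), Gdf11 to Capn6, Rtkn2 and Odz2 (0.27 to 0.31), Acvr2a to Dnajc16, Apbb2 and Casd1 (0.04 to 0.05) and Acvr2b to Parp8, Zfp428 and Ccdc107 (0.05 to 0.09). These are descriptions over the 7 libraries.

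**Figure D5:**
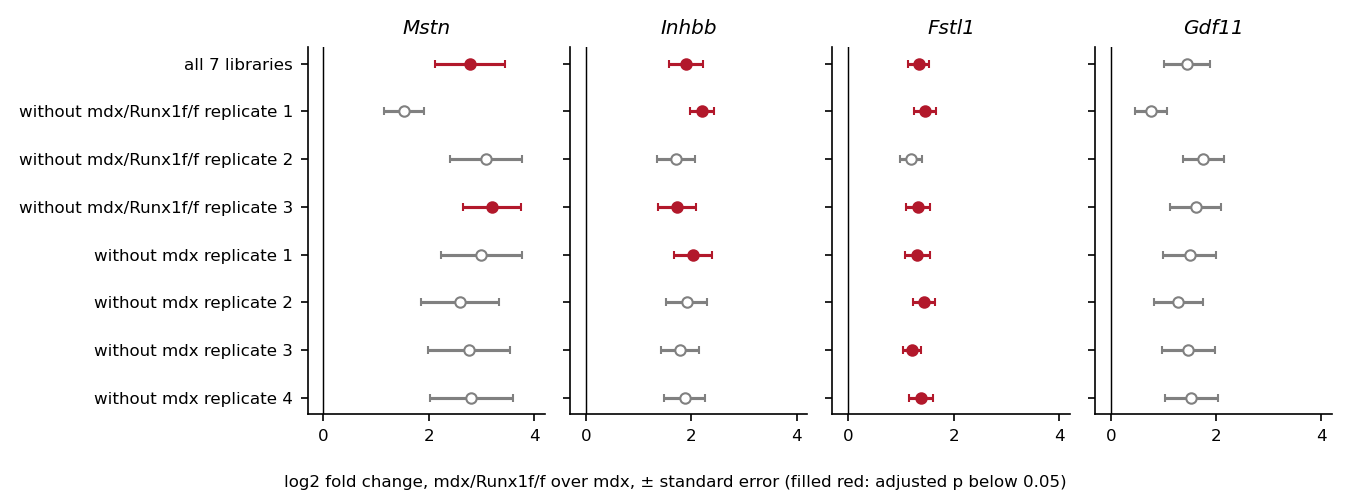
Log2 fold change, mdx/Runx1f/f over mdx, with its standard error for Mstn, Inhbb, Fstl1 and Gdf11 over all 7 libraries and with each library left out. Filled red points passed an adjusted p of 0.05 by edgeR; the Mstn value falls to 1.53 and the Gdf11 value to 0.77 without mdx/Runx1f/f replicate 1, while Fstl1 stays between 1.19 and 1.46.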

How the data were processed

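The authors aligned and counted reads with TopHat2 2.0.10 and HTSeq on mm9, per the submitters' processing notes, and deposited raw counts per gene and library. They also deposited a normalised signal, the counts divided by a size factor per library, and a log2 fold change with p-value and adjusted p-value per gene, with DESeq2 1.6.3 named in those notes. Neither annotation nor strand setting was given in the sources used here. The "normalised read counts" in the text are the authors' signal. Groups and replicate numbers follow the titles, and nothing beyond different animal numbers says that the replicates are independent. The p-values set a group difference against the spread between these samples.

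Counts were tested with edgeR 4.0.16 (R 4.3.3; TMM, filterByExpr, quasi-likelihood test on group) over 14033 genes, with Benjamini-Hochberg adjustment over all of them and calls of genes under an adjusted p of 0.05. Standard errors were derived from the F statistics, and 95% intervals use the fit's degrees of freedom. Log2 CPM used a prior count of 2 and log2 ratios of counts a pseudocount of 0.5. The script was tested on simulated counts. Every library pair differed beyond sampling noise (lowest chi-square 15.9 per degree of freedom). DESeq2 1.42.0 and limma-voom (limma 3.58.1), other scalings and filters, each library left out, the replicate number as a block and the animal number series were alternatives. Members and lists were chosen with earlier results of these data known. Named were all members, the 3 genes of smallest p in each pathway list, and the 3 genes most like each member (mean normalised count 20 or more), leaving out symbols with Gm, Rik or LOC. A gene among those most like Mstn is not reported here.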

Additional observations from a re-analysis of the deposited data

Results flagged for a closer look

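Of 28 genes looked at, the 9 members, Runx1 and the named pathway genes, 1 had a library labelled mdx far from the other 3: Trim63 stood at 4549 normalised read counts in mdx replicate 3, while the others lay between 2724 and 2869. A gap of this kind arises by chance in about 1 of 20 groups, and the group of 3 libraries was not looked at in this way.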

How the results depend on the processing

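Over 17 alternative settings, 109 of 132 recomputed fold changes of the members kept their direction and their side of the threshold, and 129 kept their direction. The reversed values were those of Fst within animals 373 to 375 (0.36) and without mdx replicate 2 (0.17), and of Acvr2b within animals 358 to 363 (0.13), none of them called; the cause was not tested. Mstn was not called by limma-voom (2.33), with a term for animal number series (2.43), within animals 358 to 363 (3.21) or within animals 373 to 375 (1.06), and ranged from 1.53 to 3.20 with a library left out. Inhbb (1.54) and Fstl1 (1.22) were not called within animals 358 to 363, where no gene of the table was called by edgeR (0 of 14051, with 2669 at an unadjusted p below 0.05); with a library left out they ranged from 1.71 to 2.20 and from 1.19 to 1.46. Fst ranged from -0.40 to 0.17 with a library left out. DESeq2 called Gdf11 (1.45).

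The number of calls in the whole table, 975, was 2396 by DESeq2, 1828 with the series as a covariate, 0 within animals 358 to 363 and 1801 within animals 373 to 375, where the lone mdx/Runx1f/f library is assumed to vary like the others. With a library left out it lay between 190 and 803. The 3 called members became 0 within animals 358 to 363 and 0 to 3 with a library left out. The number of called pathway genes, 7, was 15 by DESeq2, 0 within animals 358 to 363, 15 within animals 373 to 375, and 1 to 9 with a library left out. Title numbers were not taken to pair the animals. Deviations of same-numbered libraries correlated at -0.00687, 0.241 and 0.275, and 0 of 3 mdx/Runx1f/f libraries correlated best with their own number. A check on 3 such pairs cannot exclude a pairing. With the replicate block the table gave 320 calls, the members 1 and the pathway genes 3, with Mstn at 2.48 and Inhbb at 1.81, both uncalled.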
